A study of Danio rerio with 10 samples.

Results

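The Hedgehog and Notch pathway genes of zebrafish testis are described here across 10 RNA-sequencing libraries, with ligands, receptors, signal transducers, modifying enzymes and target genes taken apart. The members were 33 gene names, 14 of the Hedgehog and 19 of the Notch pathway, taken by name and role with no measured value in the rule. Matching to Ensembl names left 28 of the 33 names with a gene in the counts, where notch1a and notch1b share 1 counted gene. They came to 28 Ensembl genes (13 Hedgehog, 15 Notch) of 33737 genes counted. The members drew 0.059% to 0.075% of the reads of a library.

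Hedgehog ligands are secreted proteins that bind Patched and so free Smoothened to signal. Sufu holds the Gli transcription factors back until that signal arrives, and Gli proteins then switch target genes on. Patched, Hhip and Gli1 are themselves targets and serve as readouts of the pathway. In the mouse testis, Sertoli cells secrete Desert hedgehog, and the cells that answer lie outside the tubule, among them fetal Leydig cells and peritubular cells. Notch receptors are instead cut when a Delta or Jagged ligand on a neighbouring cell binds them. The freed intracellular part enters the nucleus, pairs with Rbpj and induces Hes, Hey and Nrarp genes, and Fringe enzymes tune which ligands a receptor answers to. In mouse Sertoli cells, Notch signalling restrains germ cell support factors, with Jagged ligands shown by germ cells.

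The testes of adult zebrafish, wild type in all 10 libraries, were kept 3 days in culture with 11KT (11-ketotestosterone, the main androgen of male fish). The 5 control libraries received 11KT alone and the 5 Amh libraries received 11KT and Amh, anti-Müllerian hormone, a Sertoli cell ligand of the TGF-beta family. No group lacked 11KT, so every level below is a level under androgen. Libraries held 8455226 to 15448069 counts, and within each replicate number the Amh library had 1.2 to 1.3 times the counts of its control. Levels are CPM, read counts scaled by TMM to a common library size. Where 0 reads were counted, a count of up to 3 is not excluded, which is 0.18 to 0.35 CPM by library (counting error only). Levels are not adjusted for gene length, so they are compared between libraries and not between genes. In whole tissue, fewer cells of a type and less RNA per cell cannot be told apart.

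The labels number the libraries 1 to 5 in both groups, and libraries of the same number resembled each other more than libraries of the same treatment. Changes are therefore given from the unpaired comparison and from the comparison paired by number. Marker genes of Sertoli cells (13 genes, 1365 to 2710 CPM summed), germ cells (10 genes, 4667 to 5869 CPM) and Leydig cells (11 genes, 62.6 to 434 CPM) were present in every library, as testis should hold. The summed levels of both groups overlapped for all of these lists and for the endothelial list (8 genes, 30.4 to 54.7 CPM without and 37.9 to 51.5 CPM with Amh). The Sertoli and Leydig lists share the gene NR5A1, so they are not fully separate.

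Not every member could be followed. The name table holds no gene under dhh, dla, her6 or her9, and the gene it names GLI1 has no row in the count tables, so these 5 are not analysed here. The table gives SHH, GLI2 and NRARP to 2 counted genes each without the zebrafish letter, so the pairs are told apart by identifier and neither is assigned to the a or the b form. The table also gives NOTCH1 to 2 genes, and only 1 of them (ENSDARG00000052094) has a row in the count tables. Both notch1a and notch1b were matched to this gene, and it is not assigned to either. The other gene named NOTCH1 was not measured here. Of the 28 genes, 22 passed the low-count filter and were tested (9 Hedgehog, 13 Notch). The other 6 were too low for a test, and the sections below give their counts.

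Of the 4 Hedgehog ligand genes counted, 3 were too low for a test, and dhh was not among the 4. ihha, an Indian hedgehog gene, had 12 reads in all 10 libraries together, 8 of them in the control library numbered 5. ihhb, the other Indian hedgehog gene, had 9, 2, 2, 12 and 14 reads in control libraries 1 to 5 and 14, 3, 2, 8 and 15 reads in Amh libraries 1 to 5. Its reads were fewest in the libraries numbered 2 and 3 of both groups, and the groups overlapped.

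Both genes named SHH encode Sonic hedgehog ligands, and only 1 was read often enough to test. SHH (ENSDARG00000038867) had 54 reads in all and none in 2 libraries. SHH (ENSDARG00000068567), the only Hedgehog ligand that passed the filter, stood at 10.6, 8.76, 13.0, 9.24 and 6.58 CPM in control libraries 1 to 5 and at 6.65, 8.44, 11.9, 9.97 and 7.38 CPM in Amh libraries 1 to 5. Its highest libraries were both numbered 3, and the groups overlapped widely. The paired log2 fold change with Amh was -0.12 ± 0.152 (SE, n = 5 pairs, higher in 2 of 5).

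Genes that receive the Hedgehog signal were all tested, 5 of 5, and none passed. BOC, a co-receptor that presents the ligand to Patched, stood at 23.0, 26.8, 15.8, 33.1 and 18.6 CPM in control libraries 1 to 5 and at 21.6, 22.4, 18.8, 31.3 and 28.1 CPM in Amh libraries 1 to 5. HHIP, a decoy that binds and removes the ligand and is itself a target gene, stood at 12.3, 19.0, 17.5, 14.2 and 23.3 CPM in the controls and at 13.4, 20.9, 15.4, 21.7 and 19.3 CPM with Amh, in the same order. Control and Amh values of both genes interleaved, with paired log2 fold changes of 0.08 ± 0.118 for BOC and 0.08 ± 0.128 for HHIP (SE, n = 5 pairs).

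SMO, the membrane protein Smoothened that passes the signal into the cell, was the receptor gene with the most even direction. It stood at 8.59, 6.66, 2.69, 6.29 and 7.85 CPM in control libraries 1 to 5 and at 9.43, 8.44, 5.40, 7.09 and 8.22 CPM in Amh libraries 1 to 5. The Amh library was the higher one in each of the 5 pairs, although the groups overlapped and the library of control 3 lay far below the others. The paired log2 fold change was 0.30 ± 0.168 (SE, edgeR adjusted p = 0.654) and the unpaired one 0.26 ± 0.286 (SE, adjusted p = 1). Without the pair numbered 3, whose own ratio was 0.96, the paired value was 0.17 ± 0.17 (SE).

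PTCH1, the Patched receptor and a standard readout of Hedgehog activity, ranged over 8.65 to 12.8 CPM in the controls and over 7.41 to 13.0 CPM with Amh. Its paired log2 fold change was 0.15 ± 0.139 (SE, higher in 4 of 5 pairs, 95% interval -0.14 to 0.45), and 0.25 ± 0.15 (SE) without number 3. CDON, the partner co-receptor of BOC, ranged from 12.0 to 20.3 CPM in control and from 15.2 to 19.6 CPM in Amh libraries, with a paired log2 fold change of 0.10 ± 0.113 (SE). Neither readout among the receptor genes, PTCH1 or HHIP, differed between groups beyond its spread.

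Of the genes that carry the signal to the nucleus, GLI2 (ENSDARG00000025641), a transcription factor that activates targets, came closest to a change. It stood at 15.12, 14.8, 9.88, 14.9 and 14.1 CPM in control libraries 1 to 5 and at 13.1, 11.7, 8.02, 14.3 and 10.5 CPM in Amh libraries 1 to 5. The Amh library was the lower one in 5 of 5 pairs, and the groups still overlapped. The paired log2 fold change was -0.26 ± 0.121 (SE, 95% interval -0.52 to -0.01), with an unadjusted p = 0.0438 and an adjusted p = 0.565 in edgeR, so it did not pass. The unadjusted p was 0.085 in paired DESeq2 and 0.044 in paired limma-voom. In paired edgeR it was 0.07 to 0.141 without number 1, 2, 3 or 5, and 0.0387 without number 4. The unpaired value was -0.26 ± 0.192 (SE).

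SUFU, the inhibitor that holds Gli proteins in the cytoplasm, was nearly level. It stood at 75.1, 69.3, 56.3, 62.1 and 84.9 CPM in control libraries 1 to 5 and at 80.1, 67.7, 57.2, 62.5 and 74.2 CPM in Amh libraries 1 to 5, with a paired log2 fold change of -0.02 ± 0.0737 (SE, 95% interval -0.18 to 0.13). GLI3, the Gli protein best known as a repressor, was low at 1.07 to 3.39 CPM without and 1.13 to 1.93 CPM with Amh, and GLI2 (ENSDARG00000020884) had 42 reads in all and was not tested. The interval of SUFU is among the narrowest of the members, while that of GLI3 reached from -0.78 to 0.54 and leaves its change undetermined at this depth.

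**Figure D1:**
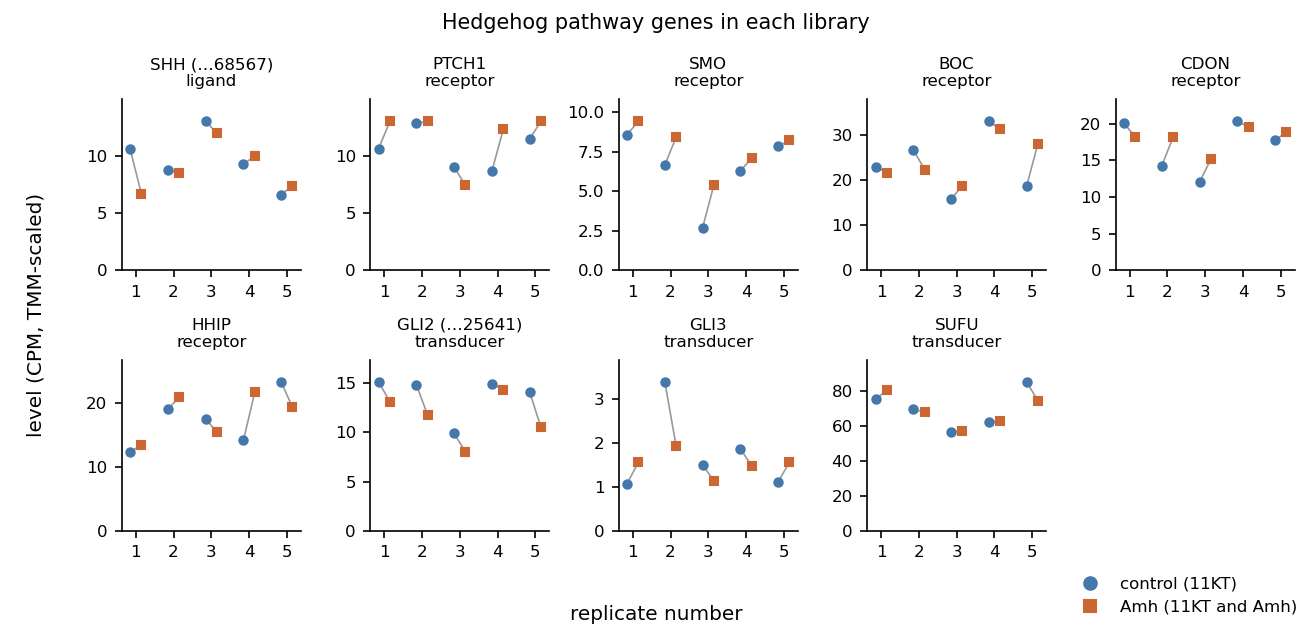
Levels of the 9 tested Hedgehog genes in each library, in CPM on linear axes that start at 0 and differ between panels, against the replicate number. Circles are control and squares Amh libraries, a line joins the 2 libraries of a number, and the last digits of the identifier tell apart genes that share a symbol. The Amh square lies above the control circle in 5 of 5 pairs for SMO and below it in 5 of 5 for GLI2.

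Notch ligands were read in every library. jag1a, a Jagged ligand, stood at 33.6, 66.9, 102, 45.5 and 29.2 CPM in control libraries 1 to 5 and at 29.9, 68.0, 84.2, 51.0 and 29.7 CPM in Amh libraries 1 to 5. The order of the numbers was the same in both groups from number 3 at the top through 2 and 4, and 98.4% of its variance in log2 CPM lay between numbers. Against that spread its paired log2 fold change with Amh was -0.05 ± 0.0827 (SE, 95% interval -0.22 to 0.13).

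jag2b, a further Jagged ligand, was the steadiest ligand, at 46.5, 59.7, 57.6, 57.3 and 53.8 CPM in control libraries 1 to 5 and 53.0, 50.7, 54.3, 46.2 and 65.4 CPM in Amh libraries 1 to 5. Its highest library was only 1.42 times its lowest, and the paired log2 fold change was -0.03 ± 0.0927 (SE). jag1b, the paralogue of jag1a, went the other way across numbers, with its lowest libraries both numbered 3 (7.31 CPM without and 8.02 CPM with Amh, against 11.1 to 17.2 CPM elsewhere). dll4, a Delta ligand known from blood vessels, ranged from 2.80 to 5.80 CPM in control and from 3.66 to 7.06 CPM in Amh libraries. Their paired log2 fold changes were -0.10 ± 0.134 for jag1b and 0.21 ± 0.197 for dll4 (SE), neither beyond the spread.

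Among Notch receptors, notch2 stood at 94.4, 84.9, 77.7, 104 and 87.1 CPM in control libraries 1 to 5 and at 100.2, 105, 83.1, 104 and 87.5 CPM in Amh libraries 1 to 5. The Amh library was higher in 5 of 5 pairs, but in numbers 4 and 5 the log2 ratios were only 6.8e-06 and 0.0069. The paired log2 fold change was 0.10 ± 0.0731 (SE, 95% interval -0.06 to 0.25, adjusted p = 0.739 in edgeR). The larger ratios, 0.09 to 0.30, were those of numbers 1 to 3.

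NOTCH1 varied most of all members that reached 1 CPM. It stood at 6.35, 2.57, 15.2, 4.03 and 2.46 CPM in control libraries 1 to 5 and at 5.97, 4.59, 9.06, 1.71 and 3.18 CPM in Amh libraries 1 to 5, a spread of 8.84 times from lowest to highest. Both libraries numbered 3 were above all others, and its 5 paired log2 ratios ran from -1.16 to 0.80. The paired log2 fold change was -0.20 ± 0.246 (SE) and the unpaired one -0.32 ± 0.542 (SE). Without number 3 the paired value was -0.01 ± 0.298 (SE). NOTCH3, a receptor known from vessel walls, ranged from 2.45 to 7.33 CPM in control and from 2.44 to 9.23 CPM in Amh libraries, with its highest values in numbers 1 and 5 of both groups and a paired log2 fold change of 0.13 ± 0.206 (SE).

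Fringe enzymes add sugars to the Notch receptor. LFNG stood at 7.25, 17.1, 7.63, 20.4 and 7.85 CPM in control libraries 1 to 5 and at 7.19, 9.45, 9.32, 13.2 and 6.78 CPM in Amh libraries 1 to 5. Numbers 2 and 4 were high in control and less so with Amh, and the groups overlapped. Its paired log2 fold change was -0.31 ± 0.164 (SE, lower in 4 of 5 pairs, adjusted p = 0.624 in edgeR), the lowest of any tested member, and -0.44 ± 0.172 (SE) without number 3. It was smaller without number 2 (-0.17 ± 0.157) or number 4 (-0.21 ± 0.196, SE). The unpaired value was -0.39 ± 0.329 (SE), and -0.11 without the control library numbered 4.

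mfng, the other Fringe gene among the members, was low and uneven. RFNG, a further Fringe gene, was not a member and was taken with the other Notch genes. mfng stood at 4.38, 5.49, 1.29, 3.44 and 3.17 CPM in control libraries 1 to 5 and at 2.99, 6.88, 4.53, 2.18 and 3.60 CPM in Amh libraries 1 to 5. The log2 ratio of number 3 was 1.69 while those of numbers 1 and 4 were -0.53 and -0.62. The paired log2 fold change of 0.16 ± 0.282 (SE) became -0.15 ± 0.253 (SE) without number 3, so its direction rested on that pair.

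Target genes are the readout of Notch activity. HEY1, a transcriptional repressor that Notch induces, stood at 104, 156, 273, 119 and 92.7 CPM in control libraries 1 to 5 and at 91.8, 109, 206, 124 and 90.2 CPM in Amh libraries 1 to 5. Both libraries numbered 3 were the highest, and the groups overlapped. The Amh library was lower in 4 of 5 pairs, with a paired log2 fold change of -0.22 ± 0.086 (SE, 95% interval -0.40 to -0.04), an unadjusted p = 0.0224 and an adjusted p = 0.491 in edgeR, so HEY1 did not pass. Unpaired, its value was -0.26 ± 0.311 (SE). Without number 2 the paired value was -0.14 ± 0.075, without number 3 -0.17 ± 0.098 and without number 4 -0.29 ± 0.094 (SE). The unadjusted p in paired edgeR was 0.068 without number 2 and 0.109 without number 3. Without numbers 1, 4 and 5 it was 0.039, 0.0095 and 0.0205.

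NRARP (ENSDARG00000091419), which encodes a protein that binds the Notch complex and dampens it, stood at 75.7, 49.2, 83.0, 56.8 and 56.1 CPM in control libraries 1 to 5 and at 64.8, 49.7, 76.5, 55.9 and 58.4 CPM in Amh libraries 1 to 5. The libraries of a number lay close together, and the paired log2 fold change was -0.06 ± 0.0749 (SE, 95% interval -0.22 to 0.10). Its namesake NRARP (ENSDARG00000018958) was low, at 1.92 to 3.01 CPM over all libraries, with a paired log2 fold change of -0.03 ± 0.255 (SE). HEY2, a relative of HEY1, ranged from 25.8 to 37.0 CPM in control and from 20.1 to 37.0 CPM in Amh libraries, with a paired log2 fold change of -0.15 ± 0.0894 (SE).

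The other target genes could not be tested. heyl, the third Hey gene, had 99 reads in all, 6 to 17 per library. her4.1, a Hes-family gene that marks Notch-active neural progenitors in zebrafish embryos, is listed at 0 in all 10 libraries, which allows up to 0.18 to 0.35 CPM by library. her4.1 belongs to a row of near-identical copies, and how reads shared between copies were counted is not given in the sources used here. Its listed 0 is therefore uncertain, as is the single read listed for her4.2.

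**Figure D2:**
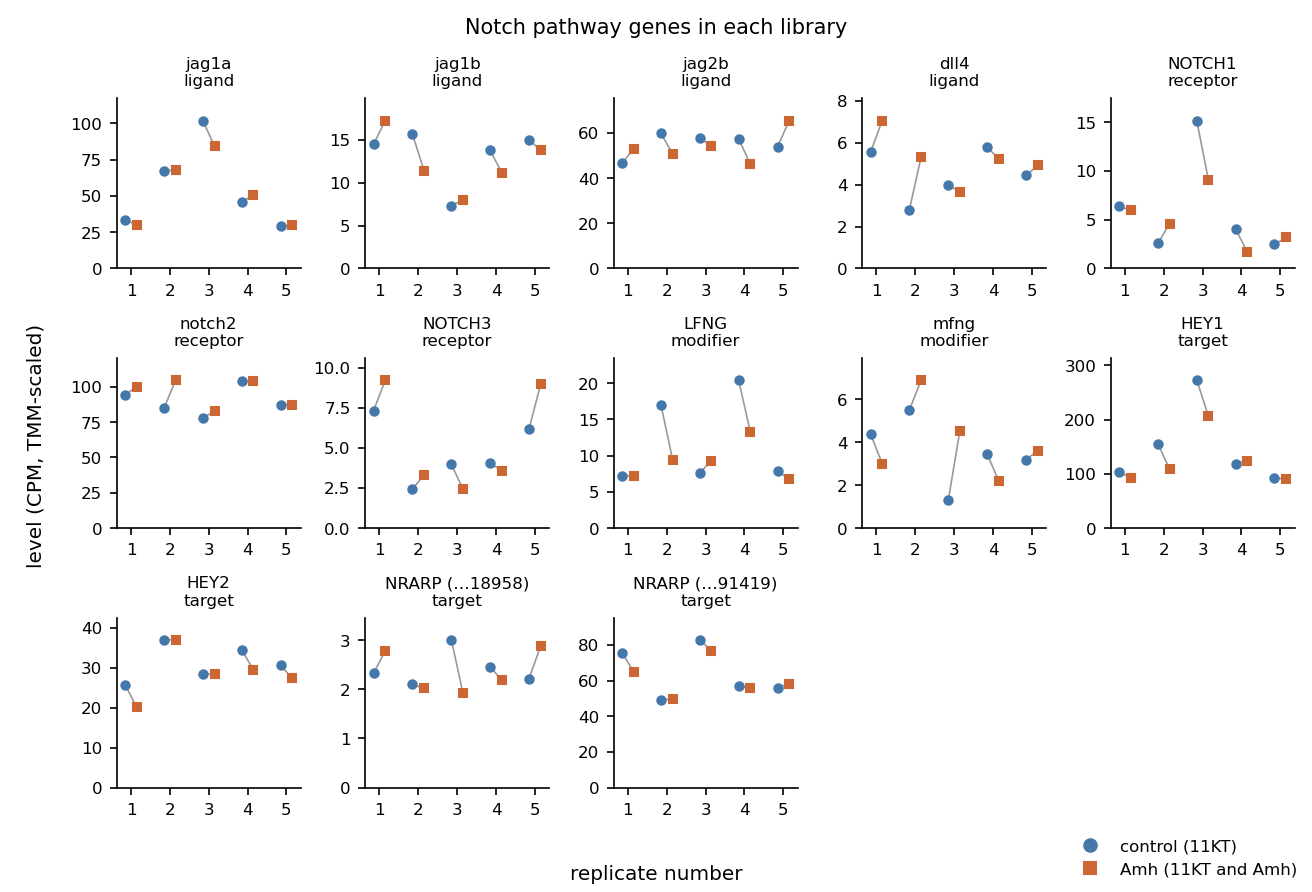
Levels of the 13 tested Notch genes in each library, in CPM on linear axes that start at 0 and differ between panels, against the replicate number. Circles are control and squares Amh libraries, and a line joins the 2 libraries of a number. jag1a, NOTCH1 and HEY1 stand highest in both libraries numbered 3, where HEY1 reached 273 and 206 CPM, and jag1b stands lowest there.

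Amh was set against control to see its action in testis that also receives androgen, and no Hedgehog or Notch member passed that comparison. Of 22 tested members, 0 passed an adjusted p of 0.05 in the unpaired edgeR test (0% of all 19420 genes did), and 0 had an unadjusted p under 0.05 (0.675% of all genes). Unpaired DESeq2 and limma-voom called 0 members as well, with 0 at an unadjusted p under 0.05 in each (0.836% and 0.7% of all genes). Paired by number, 0 members passed (0.0206% of all genes did), and 2 had an unadjusted p under 0.05, GLI2 (ENSDARG00000025641) and HEY1, both lower with Amh. Over all genes 8.71% had such a p, 4.87% lower and 3.84% higher, so 2 of 22 is near the background. Paired DESeq2 and limma-voom called 0 members, with 1 and 3 at an unadjusted p under 0.05 (5.73% and 9.31% of all genes). Among the members described in every library, paired DESeq2 gave no adjusted p for SHH (ENSDARG00000068567), SMO, GLI2 (ENSDARG00000025641), NOTCH1, LFNG and mfng. These could not be called in that fit.

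The paired estimates of the members lay on both sides of 0. They were above 0 for 9 and below 0 for 13 of 22, against 48.8% above 0 over all genes, with a median log2 fold change of -0.03 for the members and -0.01 for all genes. By role, the 5 Hedgehog receptor genes lay above 0 (median 0.10) and the 3 transducers below 0 (median -0.12), while the 4 Notch targets lay below 0 (median -0.10). Notch ligands were split 1 above and 3 below, Notch receptors 2 and 1, Fringe genes 1 and 1, and the tested Hedgehog ligand lay below 0. None of these genes passed, so the split by role is a description. A paired ratio above 0 in 5 of 5 numbers was seen for SMO and notch2 (4.66% of all genes) and one below 0 in 5 of 5 for GLI2 (5.09% of all genes). No member had groups that stood apart in CPM (0.139% of all genes did). The 95% intervals of the paired estimates all lay between -0.78 and 0.76 on the log2 scale, with a median half-width of 0.28. Larger changes lie outside those intervals for the 22 tested genes, which are unadjusted for their number, and do not cover the 6 that were too low. Without the low-count filter 5 of those 6 could be fitted and none was called. ihha then had an unadjusted p = 0.0181 and an adjusted p = 1 unpaired (edgeR, lower with Amh, where 1.14% of all genes had an unadjusted p under 0.05), and 8 of its 12 reads came from 1 control library.

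Several marker lists leaned to 1 side with Amh, although nearly none of their genes passed. An unadjusted p under 0.05 was seen for 8.71% of all genes in the paired fit. In that fit, 6 of 13 Sertoli genes had an unadjusted p under 0.05 above 0 and 1 below 0 (median log2 fold change 0.32, 1365 to 2124 CPM summed without and 1709 to 2710 CPM with Amh). Of the Leydig genes, 5 of 10 tested stood lower and 0 higher (median -0.36, 68.7 to 434 CPM without and 62.6 to 254 CPM with Amh), and of the macrophage and leukocyte genes 6 of 8 stood lower (median -0.46, 239 to 423 CPM without and 168 to 296 CPM with Amh). Of the erythrocyte genes 3 of 5 tested stood lower (median -0.33), and of the stress genes 3 of 10 stood higher (median 0.12), with none the other way. Of 10 germ cell and 9 peritubular muscle genes tested, 0 had such a p in either direction (medians -0.07 and -0.05). Of 7 endothelial genes tested, 1 stood lower and 0 higher (median 0.06). Single genes past the adjusted threshold numbered 1 among the leukocyte genes and 0 in each of the other lists (edgeR). The part of these lists in the members' estimates was not tested.

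**Figure D3:**
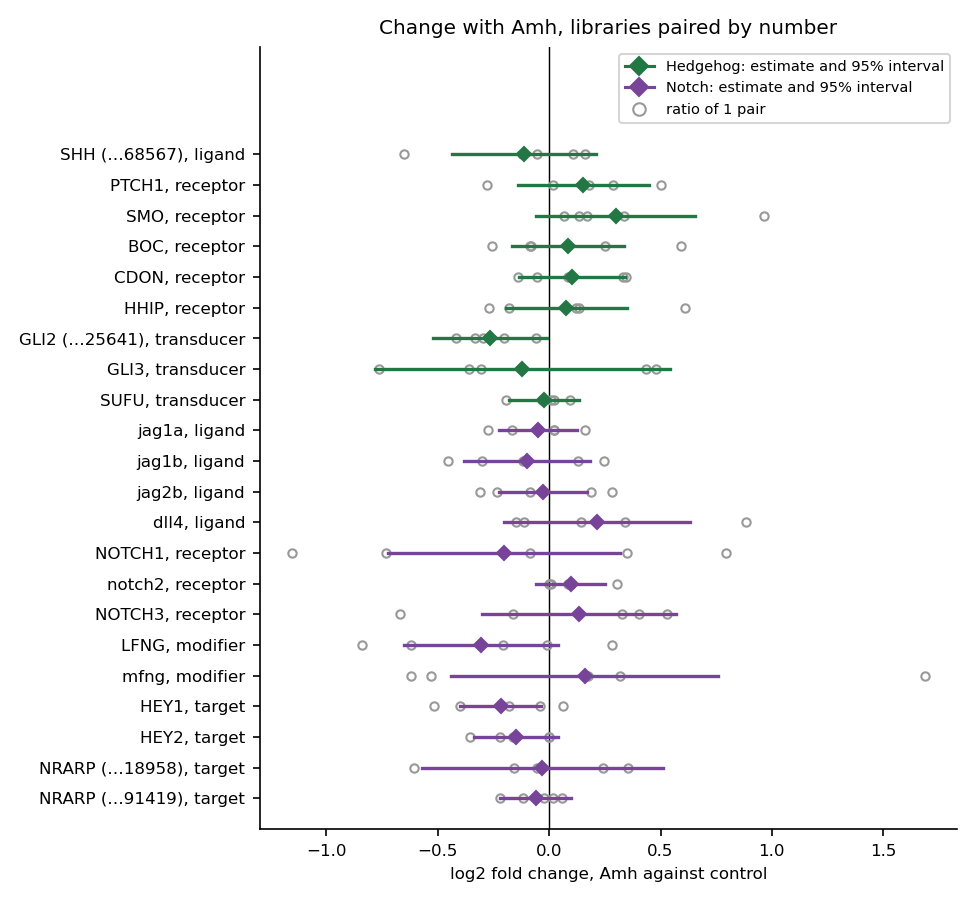
Log2 fold change of the 22 tested members with Amh against control, from the edgeR fit paired by replicate number. Diamonds are estimates, bars unadjusted 95% intervals, and open circles the log2 ratios of the 5 single pairs. Only the intervals of GLI2 and HEY1 miss 0, and neither gene passed after adjustment over 19420 genes.

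Other genes of both pathways were taken from lists of 27 Hedgehog and 56 Notch names, of which 20 and 38 genes were tested. None passed in either direction, unpaired or paired (edgeR, DESeq2 and limma-voom), and 1 unpaired and 7 paired had an unadjusted p under 0.05 in edgeR, against 0.675% and 8.71% of all genes. Their median paired log2 fold change was -0.01 in each list. Of those 7, the Notch list held 4 above and 1 below 0, and the Hedgehog list 1 each way. The Notch list counts a gene named DLD, matched to the list name dld only by ignoring case. Whether DLD is the Delta ligand of that name was not settled. Its paired log2 fold change was -0.03 ± 0.0714 (SE), and it is not among the 7.

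The Notch genes with the smallest paired p belong to steps before the nucleus or within it. APH1B, a subunit of the gamma-secretase that cuts the receptor, stood at 43.3 ± 2.15 CPM without and 51.3 ± 5.21 CPM with Amh (SD, n = 5 each) and was higher in 5 of 5 pairs (paired log2 fold change 0.24 ± 0.0762, SE, adjusted p = 0.395 in edgeR). POFUT1, which adds the fucose that Fringe enzymes extend, stood at 10.7 ± 2.91 and 13.7 ± 1.46 CPM (SD, n = 5 each). MAML3, a co-activator of the Notch complex, stood at 13.8 ± 1.21 and 16.5 ± 1.41 CPM, and NUMB, an inhibitor that removes the receptor, at 44.2 ± 6.32 and 38.5 ± 3.02 CPM (SD, n = 5 each). MAML3 was higher and NUMB lower in 5 of 5 pairs, POFUT1 higher in 4 of 5, and none of them passed (adjusted p = 0.46 to 0.535 in edgeR).

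In the Hedgehog list the smallest paired p belonged to ARRB2 (ENSDARG00000039215), a beta-arrestin, which stood at 63.8 ± 16.1 CPM without and 55.2 ± 13.1 CPM with Amh (SD, n = 5 each) and was lower in 5 of 5 pairs (paired log2 fold change -0.21 ± 0.0735, SE, adjusted p = 0.445 in edgeR). GPR161 (ENSDARG00000055659), a ciliary receptor that restrains the pathway, stood at 4.01 ± 1.40 and 5.48 ± 1.90 CPM (SD, n = 5 each) and was higher in 4 of 5 pairs. prkacab, a catalytic subunit of protein kinase A, stood at 25.4 ± 2.73 and 28.2 ± 2.43 CPM, and IFT88, a transport protein of cilia and flagella, at 409 ± 106 and 380 ± 73.1 CPM (SD, n = 5 each). Their paired log2 fold changes were 0.45 ± 0.209 for GPR161, 0.16 ± 0.0922 for prkacab and -0.09 ± 0.0751 for IFT88 (SE), and none passed.

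The replicate number carried far more of the members' variation than Amh did. Of the variance in log2 CPM of a tested member, a median of 76.1% lay between numbers and 2.4% between the treatment groups, close to the 77.2% and 2.86% of all genes. These shares are not adjusted for there being more numbers than treatment groups, which by itself raises the share of the numbers. The labels do not say what a number stands for. In a test of the 5 numbers with treatment in the model, chosen after the data were seen, 13 of 22 members differed between numbers at an adjusted p under 0.05 (edgeR, 5 of 9 Hedgehog and 8 of 13 Notch). Over all genes 52.6% did, so this share too is near the background.

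The smallest p-values between numbers belonged to Notch genes. jag1a had the smallest p of the members (adjusted p = 1.8e-07 in edgeR), with mean levels of 31.8, 67.5, 93.0, 48.2 and 29.5 CPM in numbers 1 to 5 (2 libraries each). HEY1 followed (2.9e-06), at 97.9, 132, 239, 121 and 91.5 CPM, and NOTCH1 (0.000603) at 6.16, 3.58, 12.1, 2.87 and 2.82 CPM. jag1a, NOTCH1 and HEY1 were 2.1, 3.14 and 2.16 times the mean of the other 4 numbers in number 3. Several other Notch genes of the same roles were not high there. notch2 was lowest in number 3 (80.4 against 87.3 to 104 CPM), as was dll4 (3.82 against 4.06 to 6.30 CPM), neither past the threshold (adjusted p = 0.0782 and 0.217 in edgeR), and NOTCH3 stood at 3.21 CPM, 0.569 times the mean of the other numbers. NRARP (ENSDARG00000091419) also had its highest mean in number 3 (79.7 CPM, against 49.4 to 70.24 CPM in the others, adjusted p = 0.00112).

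Several members went the other way in number 3. SMO stood at 4.04 CPM there against 6.69 to 9.01 CPM in the other numbers (adjusted p = 0.0207 in edgeR), GLI2 (ENSDARG00000025641) at 8.95 against 12.3 to 14.6 CPM (0.0374), BOC at 17.3 against 22.3 to 32.2 CPM (0.0117), SUFU at 56.7 against 62.3 to 79.5 CPM (0.00955) and jag1b at 7.66 against 12.4 to 15.9 CPM (0.00829). PTCH1, the Hedgehog readout, was also lowest in number 3, at 8.22 against 10.5 to 12.9 CPM, but did not pass (0.118). In all, 5 of 22 members had both libraries of number 3 at the top of the 10 (13.3% of all genes) and 5 had both at the bottom (9.77% of all genes). For the top pair, the members' counts in numbers 1, 2, 4 and 5 were 1, 3, 1 and 0, against 6.25%, 6.02%, 9.21% and 5.14% of all genes. For the bottom pair they were 2, 1, 0 and 1, against 6.6%, 5.79%, 6.61% and 5.32%. Over the 5 numbers, the 2 highest libraries shared a number for 10 of 22 members (40% of all genes). Without number 3, 6 of the members still differed between numbers, jag1a, NOTCH3, LFNG, HEY1, HEY2 and NRARP (ENSDARG00000091419), against 34.6% of all genes.

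The summed levels of cell markers varied between the numbers as well. The summed level of the Leydig cell list was 65.6 CPM in number 3 and 207 to 337 CPM in the other numbers, and that of the germ cell list 5692 CPM in number 3 and 4810 to 5102 CPM in the others. Endothelial markers stood at 38.5 CPM in number 3 and 39.0 to 52.7 CPM in the others, and Sertoli markers at 1604 CPM against 1616 to 2417 CPM. None of the genes of these 4 lists was at 0 in every library. Erythrocyte markers were highest in number 3 (136 against 57.0 to 119 CPM; EPOR was at 0 in every library), and stress genes lowest (497 against 533 to 771 CPM). For macrophage and leukocyte markers (281 against 203 to 359 CPM) and peritubular muscle markers (232 against 213 to 312 CPM), number 3 was neither highest nor lowest. The lists were not tested between numbers, and their part in the differences between numbers was not tested.

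Other numbers had their own members. NOTCH3 stood at 8.28 and 7.59 CPM in numbers 1 and 5 and at 2.88 to 3.81 CPM in the other 3 (adjusted p = 0.00141 in edgeR). LFNG stood at 13.2 and 16.8 CPM in numbers 2 and 4 and at 7.22 to 8.48 CPM in the others (0.00231). HEY2 was lowest in number 1, at 22.9 CPM against 28.5 to 37.0 CPM (0.00829), and HHIP likewise, at 12.9 CPM against 16.5 to 21.3 CPM (0.0447). The HHIP call was lost under RLE scaling and without number 1, 3 or 5. With 1 number left out, the calls of GLI2 (numbers 1, 3 and 4), BOC (3 and 4), LFNG (4), HEY2 (1), and SMO, SUFU, jag1b and NOTCH1 (3) were lost as well.

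**Figure D4:**
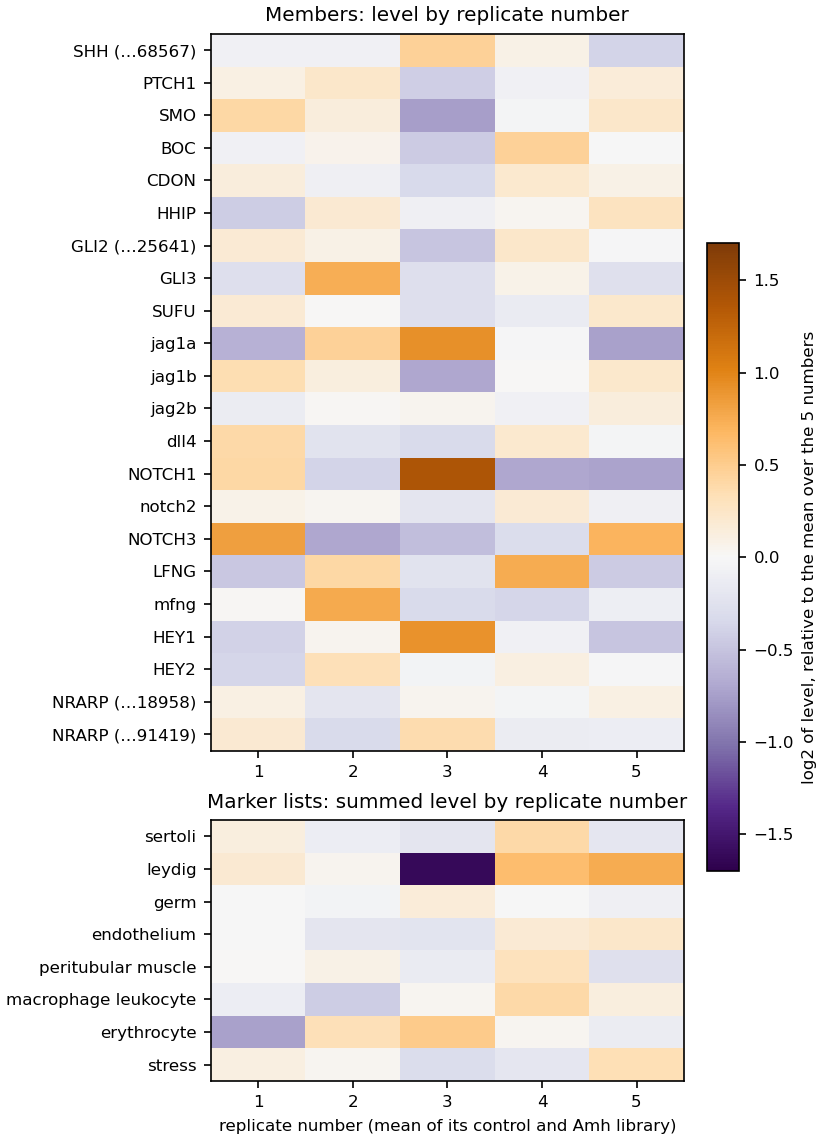
Mean level of each tested member (upper part) and summed level of each marker list (lower part) in the 5 replicate numbers, as log2 relative to the row's mean over the numbers. Each cell is the mean of 1 control and 1 Amh library. In number 3, jag1a, NOTCH1 and HEY1 are high, SMO, GLI2 and jag1b are low, and the Leydig list is lowest, at 65.6 CPM.

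Genes of the same families that the name table lists under mammalian symbols were added after that table had been seen, since it holds no her6, her9, dla or dhh. Whether any of them is one of those genes was not settled. HES4, a Hes-family repressor, stood at 36.3, 32.1, 67.3, 37.8 and 30.3 CPM in control libraries 1 to 5 and at 41.4, 32.5, 66.2, 40.4 and 33.4 CPM in Amh libraries 1 to 5. Like HEY1 it was highest in both libraries numbered 3, it differed between numbers (adjusted p = 1.2e-05 in edgeR), and its paired log2 fold change with Amh was 0.08 ± 0.0783 (SE).

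HES1, the best known Notch target of mammals, stood at 7.39 ± 2.72 CPM without and 6.98 ± 1.71 CPM with Amh (SD, n = 5 each), with a paired log2 fold change of -0.05 ± 0.192 (SE). DLL1 (ENSDARG00000020219), a Delta ligand, stood at 38.7 ± 13.3 and 37.6 ± 13.5 CPM and was highest in number 3, at 58.7 CPM against 25.4 to 41.9 CPM (adjusted p = 7.8e-05 in edgeR). DLL1 (ENSDARG00000010791) stood at 8.53 ± 1.93 and 8.32 ± 2.03 CPM (SD, n = 5 each) and was instead lowest in number 3, at 6.32 CPM against 7.71 to 11.5 CPM (adjusted p = 0.0385 in edgeR). HES1 was lowest there too, at 5.28 against 5.56 to 9.33 CPM, but did not pass between numbers (adjusted p = 0.087 in edgeR). A gene listed as IHH had 54 reads in all. None of the 4 that were tested differed between Amh and control beyond its spread.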

How the data were processed

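RNA from 10 zebrafish testis cultures was sequenced from TruSeq libraries, per the labels' protocols. The deposited values are raw read counts per Ensembl gene. Build Zv9, HTSeq, DESeq, TopHat2 2.0.5, FastQC 0.10.1 and SAMtools 0.1.18 appear, without roles, in the submitters' processing notes. No source used here gives the strand or multi-read settings, so paralogues and overlapping genes are uncertain.

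Of the 33 member names, 10 matched the name table exactly, 12 in another case, 7 without the final letter and 4 not at all. Genes were filtered with filterByExpr (19420 kept), scaled by TMM and tested over all genes with edgeR 4.0.16 in R 4.3.3 (quasi-likelihood F test, Benjamini-Hochberg adjusted p, threshold 0.05), with group as the only term. SE is the log2 fold change over the square root of F. Paired ratios use log2 CPM with a prior count of 2. Alternatives were RLE scaling, no filter, DESeq2 1.42.0, limma-voom (limma 3.58.1), the replicate block and libraries left out. Fits were tested on simulated data.

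Libraries of 1 number deviated together (correlation across genes 0.49 to 0.784 within numbers, -0.338 to 0.13 between), so numbers were taken as pairs. No libraries were copies (chi-square per degree of freedom at least 4.33). Whether numbers are animals is not stated, so p-values measure the spread between libraries, which may be technical.

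Values in every library are given for the 2 members of highest mean CPM per role and for members with an unadjusted p under 0.05. They are also given for members of 1 sign in 5 pairs with a mean log2 ratio of at least 0.2, and for the most variable of each pathway. Of other pathway genes, the 4 with the smallest paired p per list are described. Members and lists were chosen with earlier results of these data known.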

Additional observations from a re-analysis of the deposited data

Results flagged for a closer look

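In 3 of 44 groups of 5 libraries, 1 library stood far from the rest, and in each it was a library numbered 3. By chance the rule would flag about 1 in 20 independent groups, but these groups share libraries, so the count was not tested against chance. PTCH1 stood at 7.41 CPM in the Amh library numbered 3, against 12.3 to 13.0 CPM in the other Amh libraries. GLI2 (ENSDARG00000025641) stood at 9.88 CPM in the control library numbered 3, against 14.1 to 15.12 CPM in the other controls. jag1b stood at 7.31 CPM in the control library numbered 3, against 13.8 to 15.7 CPM. Without number 3 the paired log2 fold changes were 0.25 for PTCH1, -0.26 for GLI2 and -0.15 for jag1b, and none passed.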

How the results depend on the processing

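No member and no other pathway gene was called under any alternative run for it, though paired DESeq2 gave some members no adjusted p. Matching only exact names kept part of the members in the same fit, which had no calls, so it could add none. The count of all genes called moved from 0 to 4 with the replicate block, to 26 (DESeq2), 8 (limma-voom), 3 (RLE scaling) and 113 (no low-count filter) with the block and another choice, and ran from 0 to 229 with libraries left out, 229 being the block without number 2. Of members that differ between numbers, 6 of 23 tested (without number 3) to 17 of 23 (without number 2) were called with 1 number left out. Over all genes the shares were 34.6% and 60.2%. With all numbers, 13 of 22 members and 52.6% of all genes were called. ihhb, which did not pass the filter over all libraries, was tested without number 2 and is among the 17. Among 14 named and tested members, log2 fold changes turned sign only with libraries left out, with or without the block. They ran from -0.25 to 0.024 for SHH (ENSDARG00000068567), -0.051 to 0.22 for BOC, -0.056 to 0.21 for HHIP, -0.093 to 0.057 for SUFU, -0.31 to 0.26 for jag1a, -0.11 to 0.041 for jag2b, -0.66 to 0.34 for NOTCH1, -0.15 to 0.38 for mfng, -0.52 to 0.074 for HEY1 and -0.17 to 0.038 for NRARP (ENSDARG00000091419), and the cause was not tested. SMO, GLI2 (ENSDARG00000025641), notch2 and LFNG kept their sign throughout, with LFNG between -0.55 and -0.11. Depth limits ihha, ihhb, heyl and the lower SHH and GLI2 genes, which did not pass the low-count filter.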
